A study of Mus musculus with 4 samples.

Results

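The 43 genes described here drive or mark cell division: cyclins and their kinases, proteins that license and copy DNA, enzymes that make its building blocks, proteins that build and check the mitotic spindle, and inhibitors of the kinases. They were taken by gene name from the probes of 4 arrays of 2 colours, out of 24357 named genes on the array, and each was read from its brightest probe. All 43 had a probe, and all 43 passed the filter on dim probes that left 18161 genes to test. Their RNA was well above background in both genotypes on 4 arrays.

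The tissue was the ureter of NMRI mouse embryos at stage E18.5, dissected mechanically, so that each RNA holds epithelium, muscle and connective tissue together. The mutant, called cKO, was Pax2-cre/+; Trp63(dN-flox/dN-flox), in which cre is driven from Pax2, a gene of the epithelial lineage that lines the ureter, and both Trp63 alleles carry the floxed sequence for ΔNp63, the p63 form of basal epithelial cells. The control was Trp63(dN-flox/?), so it carries at least 1 of the floxed alleles too, its second allele is not given, and the labels name no cre in it. Each array held a cKO RNA in 1 channel and a control RNA in the other, from a male pair on array 2 and from female pairs on arrays 1, 3 and 4, with the dyes balanced over the genotypes. The labels do not say whether an RNA came from 1 embryo or several, so a p-value here reflects how 4 arrays vary and may be technical.

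Cells divide by passing through G1, S, G2 and M phases. D-type cyclins with Cdk4 and Cdk6 start the passage by phosphorylating the retinoblastoma proteins, which frees E2F factors to switch on the genes of replication, and Cdk1 with B-type cyclins later starts mitosis. In the urothelium, the stratified lining of the ureter, cells divide before birth while the layers form and turn over slowly in the adult, and p63 is known for supporting the proliferative capacity of basal cells in stratified epithelia.

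Trp63 itself had a log2 ratio of cKO over control of -2.18 (95% interval -2.56 to -1.79; limma adjusted p = 0.00207), from a probe whose place relative to the deleted exon is not given, so this checks the label only in part; averaged over its probes the ratio was -1.38 (adjusted p = 0.00189; 2.49e-05 to 0.0167 over 17 alternatives). The tissue markers were present: 5 of 5 superficial urothelial, 6 of 6 basal urothelial and 6 of 6 smooth muscle genes were well above background in all 8 RNAs. Markers of several cell types differed between the genotypes. All 6 basal markers were lower in the cKO (median log2 ratio -2.29), with summed intensities of 11996 to 14865 in cKO RNAs and 72111 to 85142 in control RNAs. Of 10 general epithelial markers, 5 were lower and 0 higher (median -0.53), with sums of 226407 to 362724 in cKO RNAs and 373157 to 399009 in control RNAs. Of 7 hepatocyte genes, 5 were higher and 0 lower (median 1.71), with sums of 24669 to 207995 in cKO RNAs and 9010 to 37224 in control RNAs. Of 6 adrenal cortex genes, 2 were higher and 0 lower (median 0.39), with sums of 1454 to 2638 in cKO RNAs and 1023 to 1111 in control RNAs. Of these 2, Cyp11b1 passed the filter only through the cKO, where it is high, so its call gives little support. It was well above background on 4 arrays in the cKO and on 1 in the control. Its ratios were 1.75, 0.27, 0.98 and 0.75 on arrays 1 to 4. No gene of the other lists was called. Their medians were -0.46 for superficial urothelium, 0.16 for smooth muscle, 0.17 for mesenchyme and fibroblasts and 0.18 for endothelium. For erythroid cells, leukocytes and nephron genes the medians were 0.26, -0.08 and -0.18. What these shifts contribute to the ratios below was not tested. In such whole-tissue RNA, fewer cells of a type and less RNA per cell cannot be told apart.

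Many genes of this kind share short elements close to their start: CCAAT boxes bound by NF-Y, the CHR element used by the repressive DREAM complex and by the activators of late cell cycle genes, and E2F sites. RefSeq windows of GRCm38.p6, from 250 bases before to 50 bases after the start, were at hand for 33 of the 43 genes, 30 of them with 1 window, and are 300 bases long. They were searched on both strands, a search widened to all members after the values were seen. The cyclins Ccnd1 and Ccnd2 were among the genes without a window. The CCAAT box was searched by its 5 letters, CCAAT. The CHR was searched as TTTGAA and, in a variant form, as TTTAAA. The E2F site was searched in the form TTCCCGC, in the form TTGGCGC and in the form TTCGCGC. Of the 33 genes, 26 (78.8%) held a CCAAT box in at least 1 of their windows, against 41.1% of 27025 genes with a window. A CHR was found for 19 of them (57.6%, against 30.6%) and an E2F site for 11 (33.3%, against 9.20%). Matches of different elements may overlap, and a match is only a run of letters.

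4 windows are shown, because they carry these elements in front of genes of S phase, of mitosis and of the general proliferation marker, with the matches in capitals and the start after the first 250 bases. They come from chr1:128359656-128359955 (minus strand, Mcm6), chr10:69352863-69353162 (minus strand, Cdk1), chr9:70421505-70421804 (minus strand, Ccnb2) and chr7:135716330-135716629 (minus strand, Mki67).
Mcm6: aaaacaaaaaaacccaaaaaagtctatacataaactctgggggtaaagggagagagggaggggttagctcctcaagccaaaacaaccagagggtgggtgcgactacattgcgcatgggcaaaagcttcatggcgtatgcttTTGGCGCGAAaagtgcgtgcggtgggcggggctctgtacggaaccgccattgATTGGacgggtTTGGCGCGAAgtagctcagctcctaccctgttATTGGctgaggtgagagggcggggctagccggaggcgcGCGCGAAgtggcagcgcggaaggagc
Cdk1: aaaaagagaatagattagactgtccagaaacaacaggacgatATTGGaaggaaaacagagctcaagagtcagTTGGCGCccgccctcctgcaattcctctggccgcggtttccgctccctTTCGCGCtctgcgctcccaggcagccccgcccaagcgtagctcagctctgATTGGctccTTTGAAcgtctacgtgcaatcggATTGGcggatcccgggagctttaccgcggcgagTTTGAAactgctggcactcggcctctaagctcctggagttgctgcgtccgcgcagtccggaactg
Ccnb2: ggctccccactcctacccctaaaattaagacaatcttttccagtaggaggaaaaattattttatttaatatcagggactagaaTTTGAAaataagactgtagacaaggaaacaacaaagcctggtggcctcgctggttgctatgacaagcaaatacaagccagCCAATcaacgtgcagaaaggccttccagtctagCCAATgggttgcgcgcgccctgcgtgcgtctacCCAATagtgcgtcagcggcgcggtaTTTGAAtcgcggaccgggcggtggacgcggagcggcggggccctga
Mki67: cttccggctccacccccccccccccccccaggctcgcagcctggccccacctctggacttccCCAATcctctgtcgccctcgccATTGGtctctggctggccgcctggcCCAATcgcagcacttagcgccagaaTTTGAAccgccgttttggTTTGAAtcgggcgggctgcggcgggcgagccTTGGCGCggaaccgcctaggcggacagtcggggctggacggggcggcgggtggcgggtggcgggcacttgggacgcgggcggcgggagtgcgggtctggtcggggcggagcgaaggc
The Mcm6 window has 5 E2F matches, most of them in overlapping pairs on opposite strands, and no CHR. The Cdk1 window has 3 CCAAT boxes, 2 CHR matches and 2 E2F matches. The Ccnb2 window has 3 CCAAT boxes spaced evenly before the start and a CHR 4 bases after it, and Mki67 holds all 3 kinds of element.

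Between cKO and control ureters, 1 of the 43 genes passed the test: the D-type cyclin Ccnd2, which was lower in the cKO. A gene was called at a Benjamini-Hochberg adjusted p under 0.05 over all 18161 genes tested with limma, and by that rule 8.55% of all genes were called, 2.92% higher and 5.63% lower, against 1 of 43, 0 higher and 1 lower, among the cell cycle genes. At an unadjusted p under 0.05 stood 23.7% of all genes, 10.8% higher and 12.8% lower, and 4 of the 43, of which Ccnd1 and Ccne1 were above 0 and Ccnd2 and Tyms below. The ratio had the same sign on 4 arrays for 30.6% of all genes, 14.3% above 0 and 16.3% below, and for 5 members, Ccnd1, Ccne1 and Cdk2 above 0 and Ccnd2 and Tyms below. The levels of the 4 cKO and 4 control RNAs did not overlap for 9.83% of all genes. Of the 18161 genes, 664 were higher in the cKO without overlap and 1122 lower. Among the members there were 4, Ccnd1, Ccne1 and Cdk2 higher and Ccnd2 lower.

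The members were not measured more tightly than other genes: their median SD over arrays was 0.15, against 0.13 over all genes. The 95% interval of the log2 ratio lay within a 1.5-fold change either way for 41 of the 43 genes (90.5% of all genes) and within 1.25-fold for 35 (69.3% of all genes). The 42 genes not called had interval bounds between -0.27 and 0.63 and a median half-width of 0.17, and the intervals of 39 of them held 0. Ratios lay within 0.1 of 0 for 34 members (79.1%), against 58.3% of all genes. The median over the members was 0.03, and that over all genes was 0.00.

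**Figure D1:**
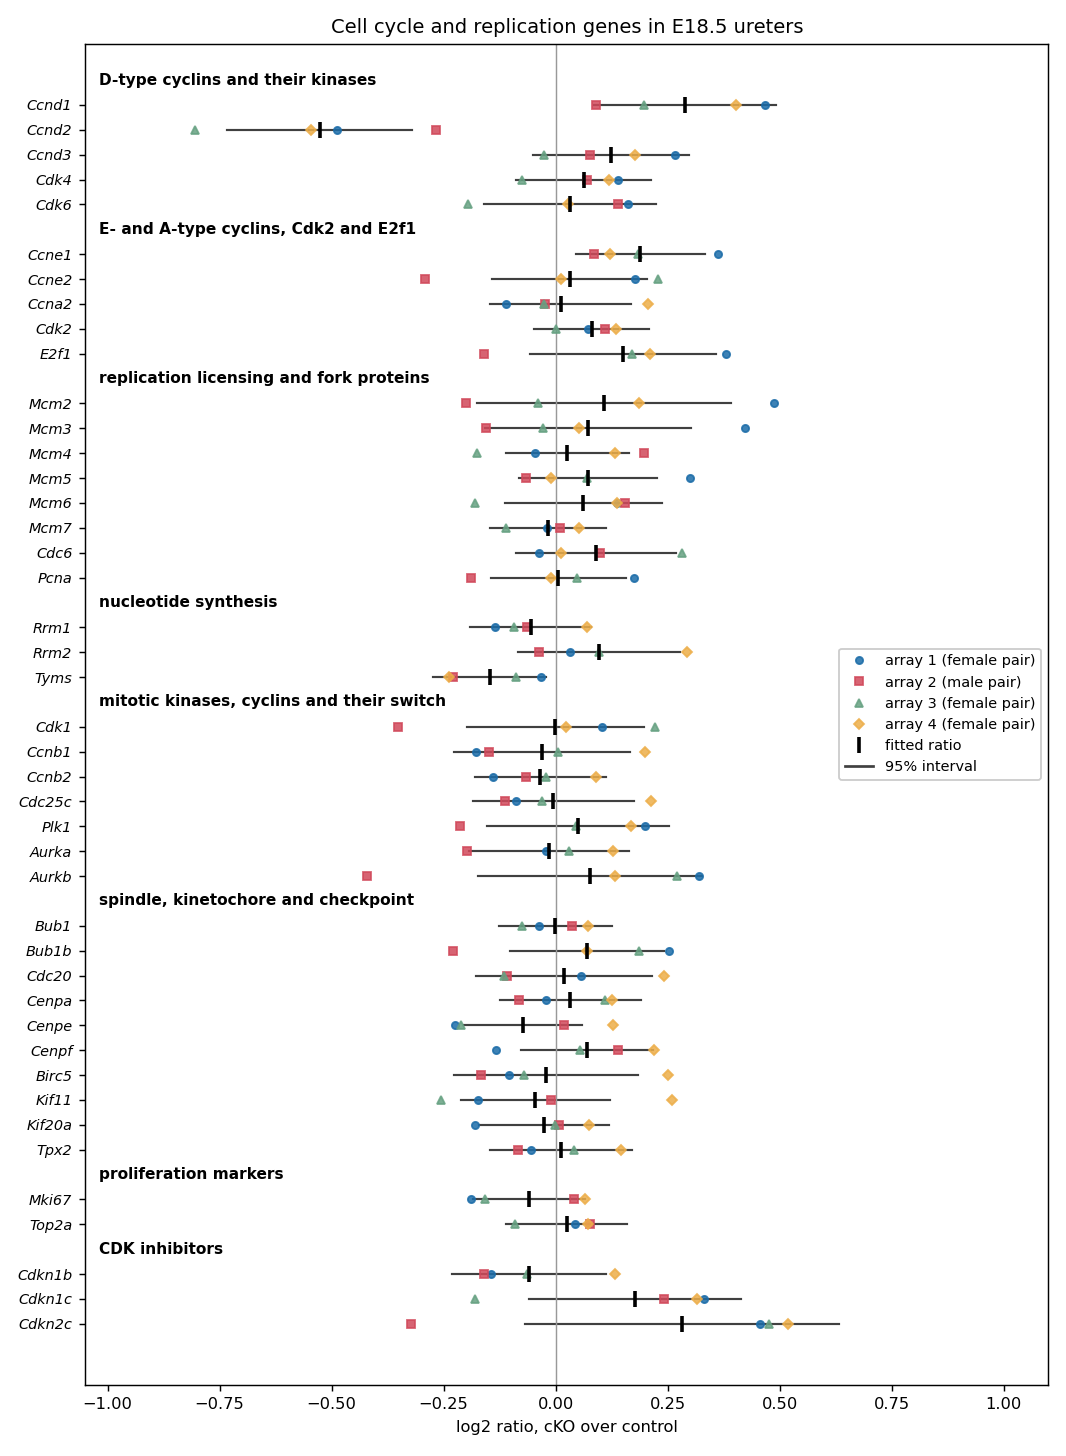
Log2 ratio of cKO over control (x axis) for the 43 genes, grouped by role. Coloured points are the 4 arrays, black ticks the fitted ratios and bars the 95% intervals. Ccnd2, at -0.53, stands alone on the left, and all other fitted ratios lie between -0.15 and 0.29.

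D-type cyclins receive growth signals and bind Cdk4 and Cdk6. Of the 5 genes of this group 1 was called, lower, and 4 were not. Ccnd2, cyclin D2, had normalized log2 intensities of 14.83, 14.88, 14.69 and 14.69 in the cKO RNAs of arrays 1 to 4, against 15.32, 15.15, 15.49 and 15.24 in the control RNAs. All 4 cKO values were below all 4 control values, as for 6.18% of all genes. Its log2 ratio was -0.53 ± 0.22 (SD, n = 4 arrays), a 1.44-fold lower level in the cKO (95% interval -0.73 to -0.32; adjusted p = 0.0218), read from 1 probe at chr6:127098696-127098755 (mm9). The call ended without array 3 (-0.45, adjusted p = 0.0742), without array 4 (-0.46, 0.0834) and with the deposited value table (-0.52, 0.0699). Over 17 alternatives Ccnd2 was called in 14, with adjusted p-values from 0.00131 to 0.0834.

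Ccnd1, cyclin D1, a target of Wnt and growth factor signals in many tissues, had log2 intensities of 15.05, 15.12, 15.22 and 15.39 in cKO RNAs, against 14.58, 15.03, 15.03 and 14.98 in control RNAs. The cKO values were all above the control values, by little on array 2. Its ratio of 0.29 ± 0.18 was not called (95% interval 0.09 to 0.49; adjusted p = 0.102), except when the channels were fitted separately with the array as a random replicate block (adjusted p = 0.0331; 0.0331 to 0.439 over the alternatives). Within each array the ratio of Ccnd1 exceeded that of Ccnd2, by 0.96, 0.36, 1.00 and 0.95, a mean difference of 0.82 ± 0.31 (SD, n = 4; exact two-sided sign-flip permutation p = 0.125, the smallest that 4 arrays allow). That pair was chosen after its values were seen. The third D-type cyclin, Ccnd3, had a ratio of 0.12 ± 0.13 (adjusted p = 0.358), and the kinases Cdk4 and Cdk6, which these cyclins activate, had ratios of 0.06 ± 0.10 and 0.03 ± 0.16.

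**Figure D2:**
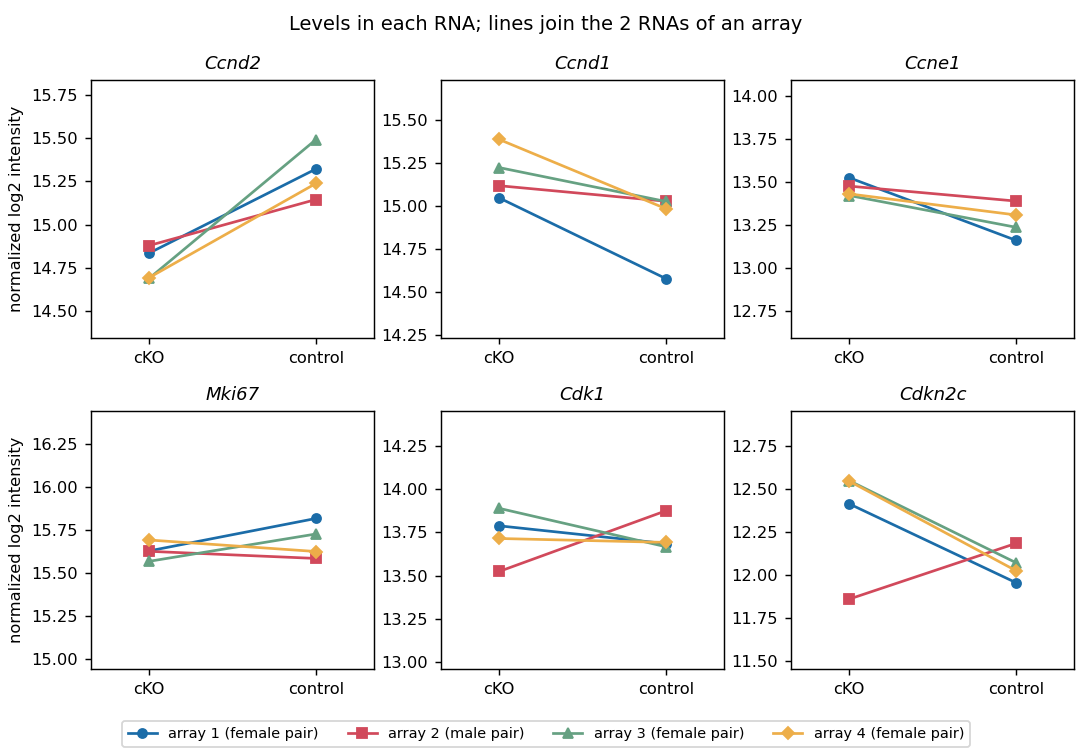
Normalized log2 intensity (y axis, the same span of 1.5 units in each panel) of 6 genes in the cKO RNA (left) and the control RNA (right), with lines joining the RNAs of an array. Ccnd2 lies lower in the cKO on all 4 arrays, Ccnd1 and Ccne1 lie higher, Mki67 and Cdk1 cross, and Cdkn2c runs the other way on array 2, the male pair.

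The step into S phase is carried by E- and A-type cyclins with Cdk2 and by the transcription factor E2f1. None of these 5 genes was called. All 5 fitted ratios were above 0, between 0.01 and 0.19, as were those of 62.8% of the members and 50.7% of all genes. Ccne1, cyclin E1, had log2 intensities of 13.53, 13.48, 13.42 and 13.43 in cKO RNAs, against 13.16, 13.39, 13.24 and 13.31 in control RNAs. The groups did not overlap, and the ratio was 0.19 ± 0.12 (95% interval 0.05 to 0.33; adjusted p = 0.122, and 0.0187 with the random replicate block; 0.0187 to 0.418 over the alternatives). Its second probe gave 0.17. Cdk2, the partner of cyclins E and A, had a ratio of 0.08 ± 0.06 with groups that did not overlap (adjusted p = 0.421). Ccne2 had a ratio of 0.03 ± 0.24. Ccna2, cyclin A2, was above 0 on 1 of the 4 arrays and had a ratio of 0.01 ± 0.14. E2f1 had one of 0.15 ± 0.23 (adjusted p = 0.350), with array 2 alone below 0 at -0.16.

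Replication starts where Cdc6 loads the Mcm2 to Mcm7 helicase, and Pcna clamps the polymerase to the DNA. The 8 genes had ratios between -0.02 and 0.11, and 0 were called, with a lowest adjusted p of 0.532. Mcm2 had log2 intensities of 13.79, 13.44, 13.57 and 13.64 in cKO RNAs, against 13.30, 13.64, 13.61 and 13.46 in control RNAs. The ranges overlapped, with array 1 at 0.49 and array 2 at -0.20, so the fitted ratio of 0.11 ± 0.30 had a wide interval (-0.18 to 0.39). Pcna had 15.80, 15.66, 15.77 and 15.77 in cKO RNAs, against 15.63, 15.85, 15.72 and 15.78 in control RNAs, a ratio of 0.01 ± 0.15 (95% interval -0.14 to 0.16). Mcm3, Mcm4, Mcm5 and Mcm7, further helicase subunits, had ratios of 0.07, 0.03, 0.07 and -0.02. Mcm6, whose window was shown for its E2F matches, had a ratio of 0.06 ± 0.16. Cdc6 had one of 0.09 ± 0.14. The second probes of Mcm3 and Cdc6 gave 0.15 and 0.14, above the range of the brightest probes. Neither was called (limma adjusted p over probes 0.401 and 0.236).

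The nucleotide enzymes gave 0 calls. Tyms, thymidylate synthase, was lower on all 4 arrays, by little on array 1, with ratios of -0.03, -0.23, -0.09 and -0.24 and a fitted ratio of -0.15 ± 0.10 (95% interval -0.27 to -0.02; adjusted p = 0.158; 0 of 17 alternatives called it). Rrm1 and Rrm2, the subunits of ribonucleotide reductase, had ratios of -0.06 ± 0.09 and 0.10 ± 0.14.

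Of the 7 kinases, cyclins and the phosphatase that start mitosis, none was called, and the ratios lay between -0.03 and 0.08. Cdk1, the mitotic kinase, had log2 intensities of 13.79, 13.52, 13.89 and 13.71 in cKO RNAs, against 13.69, 13.88, 13.67 and 13.69 in control RNAs. The cKO was lower on array 2 and higher on the others, and the ratio was -0.00 ± 0.25 (95% interval -0.20 to 0.20), with its other probes at -0.02 and 0.01. Ccnb1, cyclin B1, had 14.76, 14.70, 14.81 and 14.87 in cKO RNAs, against 14.93, 14.85, 14.80 and 14.67 in control RNAs. Its ratio of -0.03 ± 0.17 was the same as that of Ccnb2, cyclin B2 (-0.03 ± 0.10), to the digits given. Cdc25c, the phosphatase that activates Cdk1, had a ratio of -0.01 ± 0.15. The kinases Plk1, Aurka and Aurkb, which act on centrosomes, spindle and chromosomes, had ratios of 0.05 ± 0.19, -0.02 ± 0.14 and 0.08 ± 0.34.

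The 10 genes of the spindle, the kinetochore and its checkpoint also gave 0 calls, with ratios from -0.07 (Cenpe, a kinetochore motor) to 0.07 (Cenpf and the checkpoint kinase Bub1b). Together with the mitotic starters they make 17 genes, with all interval bounds between -0.23 and 0.33 and a lowest adjusted p of 0.489. Bub1, the other checkpoint kinase, had a ratio of -0.00, Cdc20, which activates the anaphase-promoting complex, one of 0.02, and the centromeric histone Cenpa one of 0.03. Birc5, survivin, had one of -0.02, and the spindle proteins Kif11, Kif20a and Tpx2 had ratios of -0.05, -0.03 and 0.01.

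Mki67, the nuclear antigen used to count cycling cells, had log2 intensities of 15.63, 15.63, 15.57 and 15.69 in cKO RNAs, against 15.82, 15.58, 15.73 and 15.62 in control RNAs. The ranges overlapped, the cKO being lower on arrays 1 and 3 and higher on arrays 2 and 4. The ratio was -0.06 ± 0.13 (95% interval -0.18 to 0.07; adjusted p = 0.553), and its second probe gave -0.04. Top2a, the topoisomerase that untangles chromosomes, had 14.26, 14.15, 14.05 and 14.13 in cKO RNAs, against 14.22, 14.08, 14.14 and 14.06 in control RNAs. Its ratio was 0.03 ± 0.08 (95% interval -0.11 to 0.16).

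The CDK inhibitors hold cells in G1. Cdkn2c, p18INK4c, which blocks Cdk4 and Cdk6, had log2 intensities of 12.41, 11.86, 12.55 and 12.55 in cKO RNAs, against 11.96, 12.18, 12.07 and 12.03 in control RNAs. It was higher in the cKO in the 3 female pairs, by 0.46, 0.48 and 0.52, and lower by 0.32 in the male pair. Over 4 arrays the ratio was 0.28 ± 0.40 (adjusted p = 0.305), and without array 2 it was 0.49 (adjusted p = 0.0300; 0.0300 to 0.732 over the alternatives). With the dye as a term, the sex coefficient equals array 2 minus array 4, 1 male pair against 1 female pair, and was -0.84 for Cdkn2c (limma adjusted p = 0.610, with these single arrays taken to vary like the others). No gene was called for it (0% of all genes), and a difference between the sexes cannot be told apart from one between single arrays.

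Cdkn1c, p57, an inhibitor tied to differentiation, had 15.90, 15.81, 15.67 and 16.05 in cKO RNAs, against 15.57, 15.57, 15.85 and 15.73 in control RNAs. It was higher in the cKO except on array 3, with a ratio of 0.18 ± 0.24 (adjusted p = 0.336). Cdkn1b, p27, which inhibits cyclin E with Cdk2, had 13.47, 13.65, 13.73 and 13.88 in cKO RNAs, against 13.62, 13.81, 13.79 and 13.75 in control RNAs. The groups overlapped and the ratio was -0.06 ± 0.14 (adjusted p = 0.682). The dimmer of its 2 probes gave -0.24 (adjusted p over probes 0.0790).

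On array 4, and less so on array 2, most of the 43 genes lay on the same side of 0. Medians over the 43 ratios were 0.03, -0.07, -0.03 and 0.13 on arrays 1 to 4, while those over all genes were -0.01, 0.00, -0.02 and 0.02. On array 4, 39 of the 43 members had a positive ratio (90.7%), against 53.6% of all genes. On array 2 it was 17 (39.5%, against 51.1%). The pattern was not particular to the members. Of the 149 other cell cycle genes, described below, 76.5% were positive on array 4 and 35.6% on array 2. For the 66 other mitotic genes among them it was 84.8% and 28.8%. All 17 mitotic and spindle genes were above 0 on array 4, and 13 of them were below 0 on array 2. On arrays 1 and 3, 5 and 9 of the 17 were above 0, so array 1 was also mostly low for these 17. Of all 43 members, 22 (51.2%) and 19 (44.2%) were above 0 on arrays 1 and 3, against 48.9% and 45.0% of all genes. All 7 mitotic starters were below 0 on array 2. On array 4 the hepatocyte markers had their lowest median, 0.61, against 2.36, 2.56 and 1.37 on arrays 1 to 3, and the general epithelial markers had -0.66, against -0.99, -0.24 and -0.48. The part of these in the array differences was not tested. Without array 4 the median over the members was -0.03, and without array 2 it was 0.08.

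**Figure D3:**
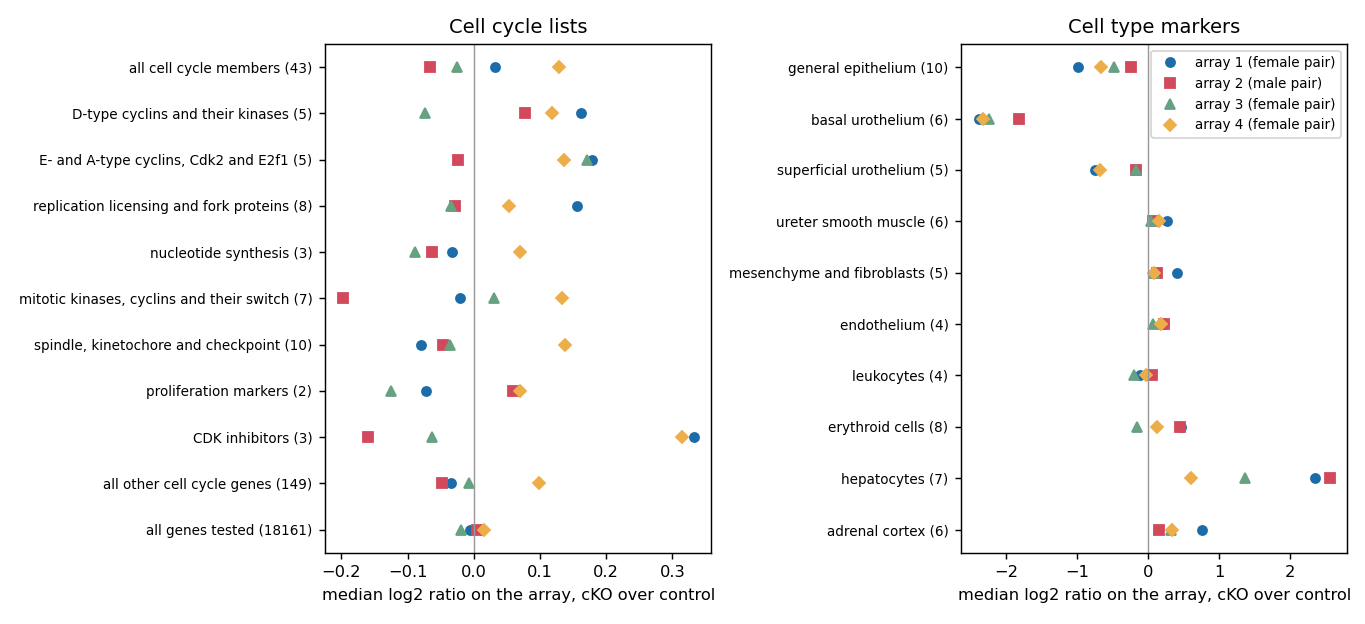
Median log2 ratio of cKO over control on each array (x axis) for cell cycle lists (left) and cell type markers (right, on a wider axis), with the number of genes tested in brackets. For the mitotic and the spindle lists array 4 lies furthest right, while all genes stay near 0, and basal and hepatocyte markers lie far from 0 on all arrays.

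The wider set of 149 cell cycle genes, listed by textbook role, gave 0 higher and 3 lower calls (5.63% of all genes were lower), and a median ratio of 0.00. At an unadjusted p under 0.05 there were 1 higher and 8 lower, against 10.8% and 12.8% of all genes. The 45 other replication genes, the 66 other mitotic genes and the 21 transcription factors of the cycle with the Rb family gave 0 calls. All 3 calls fell among the 17 other cyclins, phosphatases, kinases and inhibitors.

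Cdkn2b, p15INK4b, an inhibitor of Cdk4 and Cdk6, was lower in the cKO with log2 intensities of 10.34, 11.17, 11.04 and 11.05, against 11.12, 11.68, 11.53 and 11.50 in control RNAs, a ratio of -0.56 ± 0.15 (adjusted p = 0.0104), and both of its probes were called. Ccng1, cyclin G1, a p53 target, had 14.06, 13.97, 13.90 and 13.83 in cKO RNAs, against 14.46, 14.25, 14.35 and 14.27 in control RNAs, a ratio of -0.39 ± 0.08 (adjusted p = 0.0162). Cdkn1a, p21, another p53 target and inhibitor, had 10.26, 11.23, 11.38 and 11.14 in cKO RNAs, against 11.38, 11.86, 11.76 and 11.78 in control RNAs, a ratio of -0.69 ± 0.31 (adjusted p = 0.0336). The cKO was lower on each array for these 3 genes. Cdkn1a was called in 11 of 17 alternatives and by 1 of its 3 probes, the others giving -0.34 and -0.15; without array 2 its adjusted p was 0.0932 and without array 4 0.118. Ccng1 was called in 13 of the 17, its adjusted p being 0.0713, 0.0742 and 0.0751 without arrays 1, 3 and 4.

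The transcription factors that drive the cycle were not called. The ratio was 0.11 ± 0.11 for Myc, 0.22 ± 0.40 for Mycn and 0.13 ± 0.15 for E2f2. The mitotic regulators Foxm1 and Mybl2 had ratios of -0.04 ± 0.20 and 0.07 ± 0.22, and Rb1, the retinoblastoma gene, had one of -0.13 ± 0.13.

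**Figure D4:**
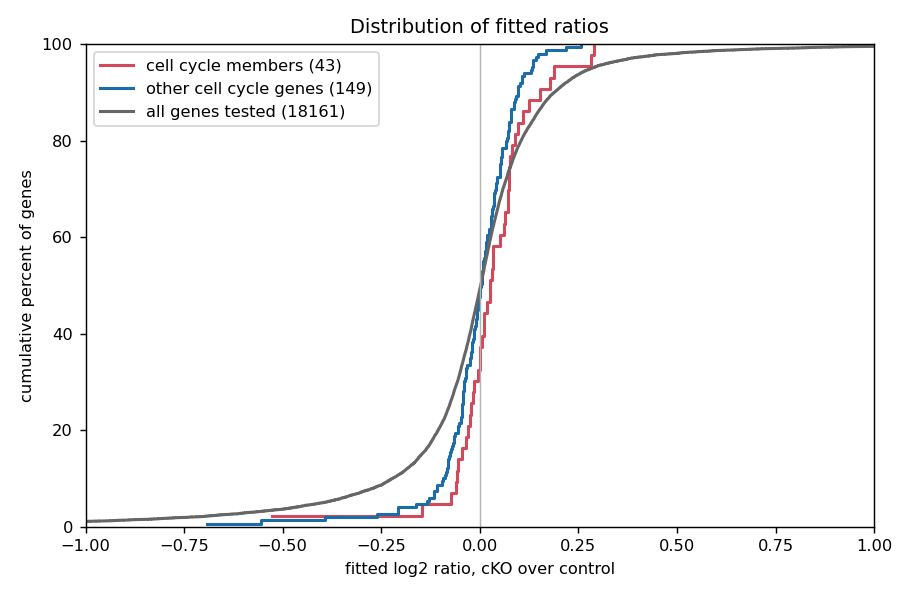
Cumulative percent of genes (y axis) by fitted log2 ratio of cKO over control (x axis) for the 43 members, the 149 other cell cycle genes and all 18161 genes tested. The curves of the cell cycle genes are steeper than that of all genes, and 79.1% of the members lie within 0.1 of 0, against 58.3% of all genes.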

How the data were processed

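Per the submitters' processing notes, the authors used Agilent Feature Extraction 10.7.3.1. The deposited files hold spot intensities, mean signals and local backgrounds on a linear scale and a log10 ratio of red over green. The value table that the authors deposited contains log2 values. Comparison with the scanner data showed them to be cKO over control with every array's median at 0, and 7718 to 12487 probes per array are exactly 0 in it, by a step not given in the sources used here. RNA input was 200 ng with 1 amplification round, per the labels.

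Mean signals were corrected with normexp (offset 50), then loess-normalized within arrays, controls having weight 0, and expressed as log2 cKO over control. Outlier spots (3.04% to 3.58%) were dropped, the 4 spots of a probe averaged, and a gene tested where its probe was well above background on 4 arrays in at least 1 genotype. No spot was saturated. The brightest probe stood for the gene. Levels per RNA come from the same values after Aquantile scaling. On array 1, 90.0% of green spots and 82.6% of red spots exceeded background clearly; the other arrays had 75.0% to 76.5% (green) and 72.4% to 72.9% (red); 4 arrays limit the precision. Names were updated through RefSeq (GRCm38.p6), by accession for 28328 probes; 5681 had none. Members kept their names in the files by rule, whatever the update gave.

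The test was limma 3.58.1 (R 4.3.3) with a dye term (2 residual degrees of freedom beside the prior) and Benjamini-Hochberg adjustment over 18161 genes; 0 genes had a called dye effect. The fit was tested on simulated data, with an outcome that is not reported here. Errors are SDs over arrays, which include the dye difference; p-values do not. All arrays lay on 1 slide. The array pairs the RNAs in each ratio; fits of the separate channels with the array as a random replicate block (statmod 1.5.0, intra-spot correlation 0.741) and without it were alternatives, beside other backgrounds, scalings, filters, probe rules and each array left out.

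The members and lists were chosen with earlier results of these data known. By rule, levels were given for members past the threshold and for 12 preset genes, and of the other cell cycle genes up to 6 calls in each direction and 6 preset regulators were named.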

Additional observations from a re-analysis of the deposited data

Results flagged for a closer look

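In 2 genes a single array stood apart from the other 3 by Dixon's criterion for 4 values, which chance meets in about 1 of 20 groups. With 43 members, 2 marks are no more than that rate gives. Mcm6, a helicase subunit, had a log2 ratio of -0.181 on array 3, a female pair, against 0.137 to 0.155 on the others (a gap of 0.946 of the range). Cdkn2c, the inhibitor of Cdk4 and Cdk6, had a ratio of -0.323 on array 2, the male pair, against 0.457 to 0.519 in the female pairs (a gap of 0.926 of the range).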

How the results depend on the processing

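Over 17 alternatives the 42 uncalled members had 714 values. Of these, 711 were uncalled and within 1 SD of the reported ratio. The other 3 were called (Cdkn2c, Ccnd1 and Ccne1, as given above), also within 1 SD, and no call was reversed. With the dyes balanced, leaving out 1 array cannot move a ratio by 1 SD. Fits without the dye term or of separate channels left the member median unchanged. The count is thus a weak check of stability. Members called lower numbered 0 with the deposited value table and 0 to 1 with an array left out; members called higher numbered 2 with the random replicate block and 0 to 1 with an array left out. Over all genes, higher and lower calls numbered 259 and 596 with the value table, 1237 and 1730 with the random replicate block, 120 and 438 with no replicate block, and 277 to 359 and 554 to 768 with an array left out. Among the other cell cycle genes, lower calls numbered 7 with the replicate block, 0 with no replicate block (Cdkn2b, adjusted p = 0.312) and 1 to 2 with an array left out. The median over the members ranged from -0.03 to 0.08. The cause of these shifts was not tested. Changes as large as 0.29 on the log2 scale (Ccnd1) were not called with 4 arrays, although the 95% interval did not hold 0.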
